A study of Mus musculus with 20 samples.

Results

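The gap between T follicular regulatory (TFR) cells and GL7+ T follicular helper (TFH) cells was compared between peripheral lymph nodes (pLN) and the Peyer's patches of the gut (PP). Each of 5 array slides carried 1 TFR and 1 GL7+ TFH array, 10 of the 20 arrays of the series. On each slide the log2 intensity of the TFH array was subtracted from that of the TFR array, so that a shift common to a whole slide cancels. The TFR minus TFH differences of the 2 PP slides were then set against those of the 3 pLN slides. A positive value of this second difference means that TFR cells lay higher relative to GL7+ TFH cells in PP than in pLN.

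All cells came from B6.Cg-Foxp3<tm1Mal> mice, in which GFP reports Foxp3, aged 8 to 14 weeks and of mixed sex, with 8 to 15 mice per sample according to the labels. The pLN samples were labelled as immunised and were taken on day 12 (2 samples of each cell type) or day 25 (1 of each). By the study's methods the antigen was keyhole limpet haemocyanin in alum. The PP samples (2 of each cell type) carried no immunisation label. Sorted TFH cells were GFP- PD1hi GL7+, while TFR cells were GFP+ PD1hi and were not separated by GL7, so the cell types differed in that gate in both tissues. Since each sample was a pool, the p-values measure the spread between pools and not between mice.

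TFH cells are CD4+ helper cells that enter B-cell follicles, where Bcl6 directs their differentiation, CXCR5 guides them along CXCL13, and IL-21 and IL-4 reach the germinal centre B cells. TFR cells arise mainly from Foxp3+ regulatory T (Treg) cells that take up part of the same follicular programme while keeping Treg genes, and they restrain the germinal centre reaction. PP are gut-associated lymphoid tissue with ongoing germinal centres fed by intestinal antigen, whereas a resting pLN forms germinal centres only after immunisation.

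The labels were checked against defining genes. Foxp3, the lineage factor of Treg cells, had normalised intensities of 29926, 22048 and 27484 in the pLN TFR samples (day 12 replicates 1 and 2, then day 25; this order is kept throughout) and of 19242 and 13409 in PP TFR replicates 1 and 2. It lay at 95, 57 and 27 in pLN TFH and at 41 and 39 in PP TFH, where 3 of the 5 arrays did not detect it. The TFR minus TFH difference of Foxp3 was similar in both tissues (difference between tissues -0.31 ± 0.45 log2, SE, adjusted p = 0.751). None of the 7 T-cell markers was called between the tissues, with a median difference of 0.25. The markers followed the cell labels on all 10 arrays.

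Some arrays stood apart. On PP slide 1 all 13 B-cell markers were higher in TFR than in TFH (median 2.11 log2), with a summed intensity of 170384 in TFR, against 7914 to 14360 in the other 4 TFR samples and 6512 to 41946 in the TFH samples. On PP slide 2 the same markers had a median of -1.18, and on the pLN slides -2.47, -0.29 and -0.26. The B-cell marker Ms4a1 gave TFR minus TFH values of 1.96 on PP slide 1 and of -3.69 on PP slide 2. The number of called probes, the list counts and the named genes were therefore also computed with each PP slide left out in turn. The counts of called genes among all genes tested, their forms by tissue, their shifts by cell type and the motif counts were not. The pLN day 12 TFR array of replicate 2 had a median local background of 268, against 24 to 78 on the other 9. GL7+ TFH lay at slide position 2 in pLN and 1 in PP, so position and tissue cannot be told apart. Between 45.2% and 58.0% of probes were detected per array and none was saturated.

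**Figure D1:**
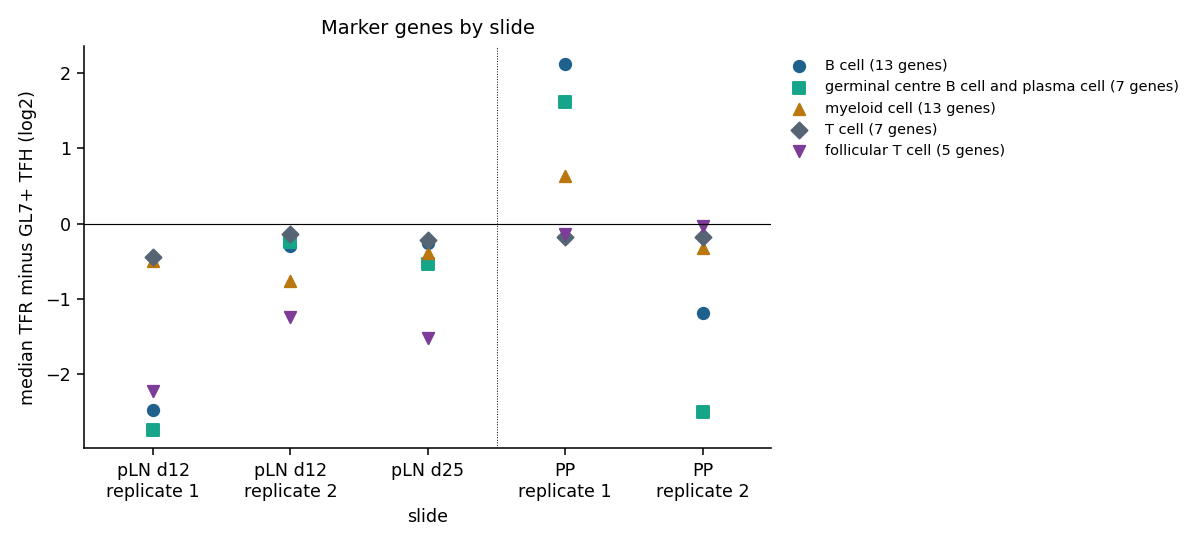
Median within-slide TFR minus GL7+ TFH difference (log2, vertical axis) of the markers of 5 cell types on each of the 5 slides (horizontal axis), 1 symbol per cell type. B-cell markers were spread between a median of 2.11 on PP slide 1 and -2.47 on the slide of pLN day 12 replicate 1, while the T-cell medians stayed between -0.44 and -0.14.

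Of 14265 genes tested, 529 (3.71%) differed between the tissues at an adjusted p below 0.05 (limma, Benjamini-Hochberg) and by at least 1 log2 unit. The TFR minus TFH difference was larger in PP for 338 genes (2.37%) and smaller for 191 (1.34%). Within single tissues, TFR and TFH cells differed by the same criteria for 1371 genes (9.61%) in pLN and 1016 genes (7.12%) in PP, and both comparisons use the same arrays as the difference between them. TFR cells were higher for 787 genes (5.52%) and lower for 584 (4.09%) in pLN, and higher for 693 (4.86%) and lower for 323 (2.26%) in PP. The within-slide differences of the PP slides lay outside the range of those of the pLN slides for 38.8% of all genes (15.1% above and 23.8% below). This is the background for the rule of non-overlapping tissues by which genes were named. No such share was computed for the intensities of either cell type alone, so overlap of TFR or TFH intensities is only described below. The median difference over all genes was -0.06 log2. The power of a design with 2 PP slides is limited, and without PP replicate 1 or 2 the number of called probes went from 720 (3.3% of those tested) to 244 or 286. The direction held for all 720 probes in both cases, but they were called from these same slides, so this is no independent support. Of 52 called genes named here, 38 and 36 lost their call in these fits, and 10, 18 and 13 lost it without the slide of pLN day 12 replicate 1, day 12 replicate 2 or day 25.

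**Figure D2:**
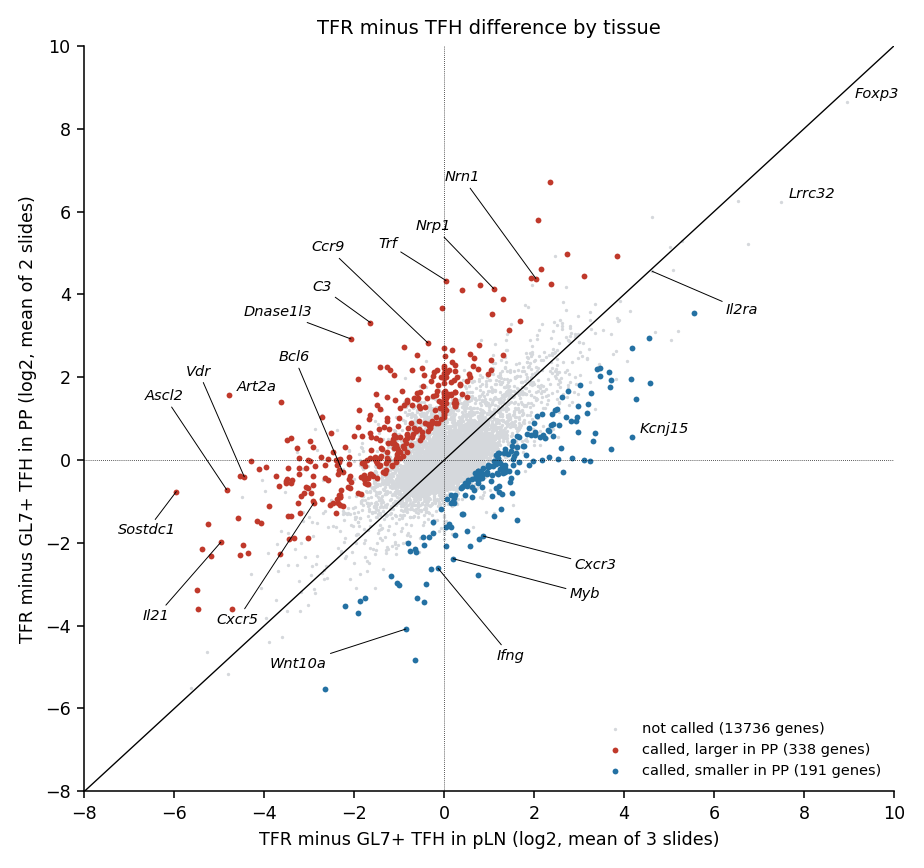
TFR minus GL7+ TFH difference in PP (mean of 2 slides, log2, vertical axis) against that in pLN (mean of 3 slides, log2, horizontal axis) for the genes tested, with the called genes in red (338, larger in PP) or blue (191, smaller). The larger-in-PP genes lie above the line of equal differences, many of them at strongly negative pLN values and close to 0 in PP, such as Sostdc1 (-5.96 in pLN, -0.76 in PP).

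The 338 genes with a larger difference in PP fell mostly into 2 forms. For 143 of them (42.3%), TFR cells were lower than TFH cells in pLN and no difference was called in PP. For 104 (30.8%), TFR cells were higher in PP and no difference was called in pLN. The median TFR minus TFH difference of these 338 genes was -1.36, -0.87 and -1.01 on the pLN slides and 0.62 and 0.66 on the PP slides. Among the 191 genes with a smaller difference in PP, 86 (45.0%) were higher in TFR in pLN without a call in PP, and the slide medians were 1.40, 1.03 and 1.21 in pLN and -0.31 and -0.11 in PP. All genes together had slide medians between -0.08 and 0.02.

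Which cell type differed between the tissues was read from the intensities themselves, with no test, since slides and tissues cannot be separated for one cell type alone. For 274 of the 338 genes (81.1%), TFR cells differed more between PP and pLN than TFH cells did. The same held for 128 of the 191 genes (67.0%) and for 8708 of all 14265 genes (61.0%). The median PP minus pLN shift of the 338 genes was 1.66 in TFR and -0.16 in TFH, and that of the 191 genes was -1.26 in TFR and 0.20 in TFH. In 10 genes TFR cells were called lower than TFH cells in pLN and higher in PP. These were Dnase1l3, Tuba8, Il13ra1, Ltbr, Ak4, Akap5, Scnn1b, Liph, Slc37a2 and Fads2.

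Sostdc1, an extracellular antagonist of BMP and Wnt ligands that follicular T cells secrete, showed the loss of the gap most plainly (probe at chr12:37044532-37044591, mm9). TFR cells had intensities of 1203, 1021 and 1181 in pLN and of 43577 and 31136 in PP. TFH cells had 91156, 51058 and 74679 in pLN and 91914 and 42446 in PP. PP TFR cells thus lay above every pLN TFR sample and near the TFH samples, whose ranges overlapped between tissues. TFR cells were 62.1-fold lower than TFH cells in pLN (-5.96 ± 0.30 log2, SD, n = 3 slides) and 1.70-fold lower in PP (-0.76 ± 0.45, n = 2), a difference between tissues of 5.19 ± 0.66 (SE, adjusted p = 0.00129). It was called with either PP slide left out (5.51 and 4.88).

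Dnase1l3, a secreted DNase, changed side. TFR intensities were 403, 330 and 324 in pLN and 3412 and 2576 in PP, and TFH intensities were 2381, 1198 and 1129 in pLN and 403 and 379 in PP. Each cell type was high in the tissue where the other was low, with no overlap between tissues. TFR cells were 4.21-fold lower than TFH cells in pLN and 7.59-fold higher in PP (difference between tissues 5.0 ± 0.58, adjusted p = 0.000834).

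Art2a, a mouse T-cell ADP-ribosyltransferase, had the largest difference of the named genes. Its TFR intensities were 58, 69 and 189 in pLN and 1920 and 4162 in PP, and its TFH intensities were 3928, 1212 and 3395 in pLN and 984 and 908 in PP. The TFR minus TFH difference was -4.79 ± 1.12 (SD, n = 3) in pLN and 1.58 ± 0.87 (n = 2) in PP, so that the tissues differed by 6.37 ± 0.66 (SE, adjusted p = 0.000413). The other genes at this end were of mixed function. Trf, which encodes transferrin, was 20.2-fold higher in TFR than in TFH in PP and 1.03-fold higher in pLN (4.29 ± 0.66, adjusted p = 0.00395). C3, the central complement component, was 9.99-fold higher in PP and differed by 4.96 ± 1.19 between tissues (adjusted p = 0.0365). C3 was not called without PP replicate 1 (adjusted p = 0.183) or 2 (0.196), and Trf not without replicate 2 (0.091).

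Acod1, the itaconate-producing enzyme best known from macrophages, had TFR intensities of 74, 21 and 100 in pLN and of 636 and 267 in PP, and differed by 5.02 ± 0.86 (adjusted p = 0.00724). The 13 myeloid markers, of which none was called, had a median difference between tissues of 0.73 and summed intensities of 82002 to 91109 in pLN TFR, 96339 to 101261 in pLN TFH, 135203 to 177496 in PP TFR and 120182 to 168255 in PP TFH. Their part in the values of Acod1, C3 and Trf was not tested. Grtp1, a GTPase-activating protein of Rab GTPases by its sequence, was not detected in any pLN TFR sample and lay at 2153 and 2888 in PP TFR, beside 2256 and 2817 in PP TFH. The limma estimate of the difference between tissues, from floored values, was 4.28 ± 0.40 (adjusted p = 0.000233). With bounds, which were not tested, TFR cells were at least 9.67-fold lower than TFH cells in pLN, and the difference between tissues was at least 3.26 log2. Such bounds set each array of the dimmer group at its lowest detected intensity, or at the probe's own value where that was higher. Cbfa2t3, a transcriptional corepressor, differed by 4.14 ± 0.84 (adjusted p = 0.0168) and was detected in 1 of 3 pLN TFR samples. Cbfa2t3 was not called without PP replicate 1 (adjusted p = 0.087), pLN day 12 replicate 1 (0.0817) or day 25 (0.0517), nor Acod1 without PP replicate 1 (0.0877).

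**Figure D3:**
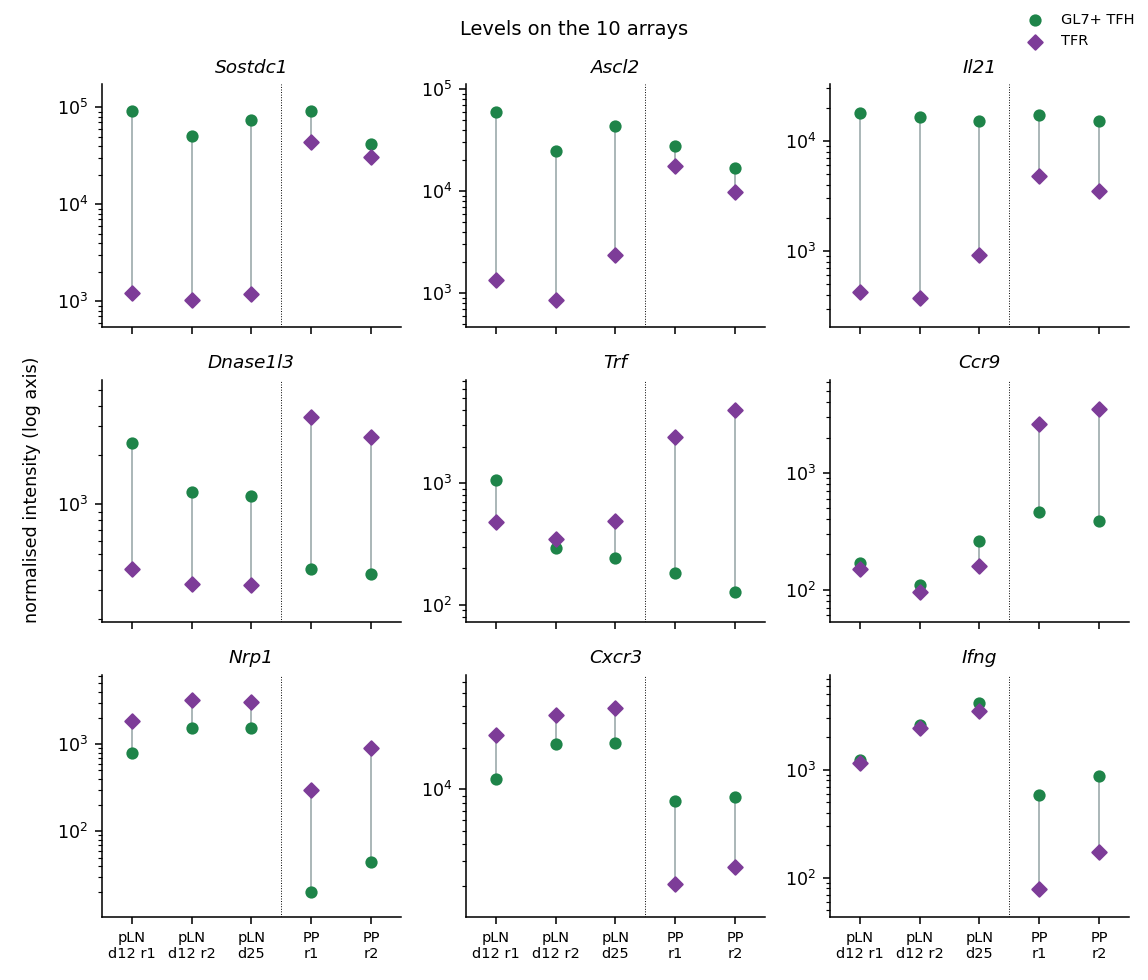
Normalised intensity (log scale, vertical axis) of selected genes in each TFR and GL7+ TFH sample, pLN and PP side by side (horizontal axis), 1 point per array and a line joining the arrays of a slide. For Sostdc1, Ascl2 and Il21 the PP TFR points lie above the pLN TFR points, and for Cxcr3 and Ifng they lie below.

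Of 24 tested transcription factors of follicular T cells, 4 (16.7%) were called, all larger in PP, against 3.71% of all genes. Each list below is to be read against that 3.71%. All gene lists were chosen with earlier results of these data known, so their counts are no independent evidence. The median difference of the 24 was 0.20. Bcl6, the master regulator of both follicular lineages, had TFR intensities of 8794, 10254 and 16807 in pLN and of 53774 and 46063 in PP. Its TFH intensities were 70322, 42692 and 54741 in pLN and 72183 and 51429 in PP, so that the TFH samples overlapped between tissues and the TFR samples did not. TFR cells were 4.77-fold lower than TFH cells in pLN and 1.22-fold lower in PP (1.96 ± 0.36, adjusted p = 0.0104).

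Ascl2, a basic helix-loop-helix factor that induces Cxcr5 (chr7:150152734-150152793, mm9), followed the same order. Its TFR intensities were 1351, 864 and 2338 in pLN and 17635 and 9858 in PP, against TFH intensities of 59656, 24716 and 43331 in pLN and 27675 and 16893 in PP. The pLN TFR samples were the lowest and the pLN TFH samples mostly the highest. TFR cells were 28.6-fold lower in pLN and 1.64-fold lower in PP (4.12 ± 0.49, adjusted p = 0.000934). Tox2, an HMG-box factor that acts with Bcl6, differed by 1.49 ± 0.28 (adjusted p = 0.0122). Nfia was dim, with 20 to 54 in the 6 pLN samples and 100 to 134 in the 4 PP samples. It was called (adjusted p = 0.0254), but 1 of the 6 pLN samples detected it and its direction turned when the dim groups were set at their bounds.

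Prdm1, which encodes Blimp-1 and opposes Bcl6, was higher in TFR in both tissues (2.22 in pLN and 2.62 in PP) and gave a difference of 0.40 ± 0.41 (adjusted p = 0.632). Klf2, a factor of T-cell recirculation, gave -0.41 ± 0.57 (adjusted p = 0.732), with PP slides of 1.83 and 0.47. Ascl2 was the 1 member of the list called without PP replicate 1, and Ascl2 and Tox2 were called without PP replicate 2. Bcl6 had differences of 2.09 (adjusted p = 0.123) and 1.83 (0.165) in these fits. Without pLN day 12 replicate 2, Bcl6 and Ascl2 were called.

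**Figure D4:**
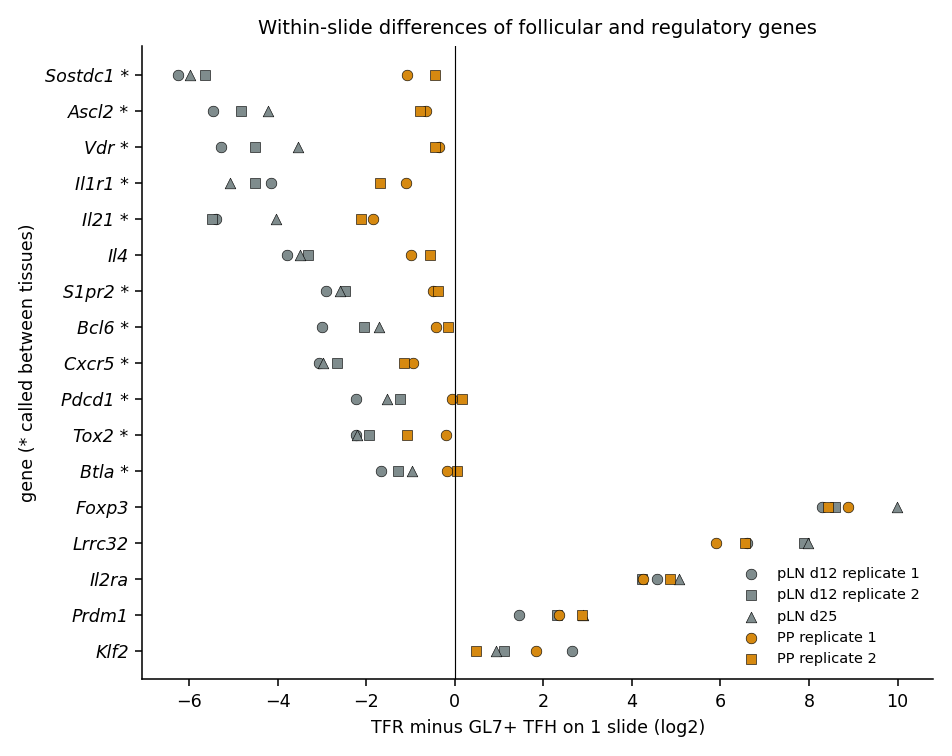
TFR minus GL7+ TFH difference (log2, horizontal axis) of named genes (vertical axis) on each of the 5 slides, 1 point per slide, with pLN in grey and PP in orange and an asterisk on genes called between tissues. For Bcl6 the 3 pLN slides lie between -3.00 and -1.70 and the PP slides at -0.42 and -0.16.

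Among 21 tested T-cell cytokines 4 (19%) were called, 2 in each direction, with a median of 0.02. Il21, the cytokine that drives germinal centre B cells and plasma cell differentiation, had TFR intensities of 429, 373 and 914 in pLN and of 4759 and 3489 in PP. TFH intensities were 17879, 16636 and 15019 in pLN and 17168 and 15163 in PP. TFR samples were the lower cells in both tissues, with no overlap between the tissues, and the TFH ranges overlapped. The gap was 31.3-fold in pLN and 3.96-fold in PP (2.98 ± 0.54, adjusted p = 0.00923).

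Il4, which promotes class switching, had TFR intensities of 2697, 4169 and 3715 in pLN and of 20574 and 27193 in PP, with TFH at 37251 to 41849 on all 5 arrays. TFR cells were 11.6-fold lower in pLN and 1.71-fold lower in PP. The 2.76 ± 0.84 between tissues did not pass the threshold (adjusted p = 0.0864). With the slide as a random block it did (adjusted p = 0.0427). Csf1, a growth factor of macrophages, was 2.40-fold higher in PP TFR than in PP TFH and 1.06-fold lower in pLN (1.35 ± 0.29, adjusted p = 0.0218), with 1 of its 3 probes called.

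Ifng, the type 1 effector cytokine, went the other way. TFR intensities were 1154, 2458 and 3538 in pLN and 79 and 173 in PP, and TFH intensities were 1234, 2603 and 4143 in pLN and 588 and 870 in PP. Both cell types were lower in PP, and PP TFR cells lowest of all. TFR and TFH differed 1.10-fold in pLN and 6.12-fold in PP (-2.48 ± 0.47, adjusted p = 0.0116). Lta, which encodes lymphotoxin alpha, was 2.02-fold higher in pLN TFR and 1.11-fold lower in PP TFR (-1.16 ± 0.17, adjusted p = 0.00316). None of the 21 cytokines was called without PP replicate 1, and Lta alone was called without PP replicate 2. Ifng was also lost without the day 25 slide.

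The type 1 and cytotoxic list had 5 of 22 tested members called (22.7%), 4 smaller in PP and 1 larger, and a median of -0.27. Cxcr3, the receptor of the interferon-induced chemokines, had TFR intensities of 24669, 34295 and 38766 in pLN and of 2054 and 2751 in PP. TFH intensities were 11894, 21094 and 21459 in pLN and 8191 and 8794 in PP. The highest samples were pLN TFR and the lowest PP TFR. TFR cells were 1.83-fold higher than TFH cells in pLN and 3.57-fold lower in PP (-2.71 ± 0.60, adjusted p = 0.0262). The other smaller members were Ifng, Nkg7, a cytotoxic granule protein (-1.65 ± 0.32, adjusted p = 0.0128), and Il12rb2, the signalling chain of the IL-12 receptor (-1.19, adjusted p = 0.0264).

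Stat4, which transmits IL-12 signals, was the larger member. TFR cells were 2.16-fold lower than TFH cells in pLN and 1.23-fold higher in PP, with slide values of -1.17, -1.07 and -1.09 against 0.14 and 0.47 (1.4 ± 0.14, adjusted p = 0.000348). Tbx21, which encodes the type 1 factor T-bet, had a difference of -2.26 just outside the threshold (adjusted p = 0.0518). Stat4 was the 1 member called with either PP slide left out. Cxcr3 had values of -2.55 (adjusted p = 0.227) and -2.86 (0.183) in those fits, and was lost without pLN day 12 replicate 2 (0.074) or day 25 (0.068).

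Of 18 tested genes of the IL-2 receptor and STAT5 response, 3 (16.7%) were called, all smaller in PP, and the median was -0.33. They were Lta, Osm, which encodes oncostatin M (-1.42 ± 0.22, adjusted p = 0.00423), and Il7r, the IL-7 receptor chain (-1.93 ± 0.49, adjusted p = 0.0459). Il2ra, the high-affinity IL-2 receptor chain that Treg cells depend on, had TFR intensities of 17697, 14256 and 18068 in pLN and of 1191 and 3268 in PP. TFH intensities were 743, 760 and 537 in pLN and 63 and 112 in PP. Both cell types were lower in PP, so the gap was 24.7-fold in pLN and 23.6-fold in PP, and the tissues differed by -0.07 ± 0.40 (adjusted p = 0.946). This depended on the TFH gate used in PP. Against GL7- TFH cells in PP, at 174 and 333, the difference of Il2ra was called smaller in PP (limma, adjusted p = 0.0353). The series has no GL7- TFH array of pLN, so pLN kept GL7+ TFH cells in this and all such fits. Gate and tissue cannot be told apart in them. None of the 18 was called without PP replicate 1, and Lta was called without PP replicate 2.

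Of 26 tested genes of Treg identity and effector Treg cells, 3 (11.5%) were called, 1 larger and 2 smaller in PP, with a median of 0.12. Nrp1, a semaphorin and VEGF co-receptor of thymus-derived Treg cells, had TFR intensities of 1840, 3234 and 3085 in pLN and of 302 and 912 in PP. TFH intensities were 792, 1515 and 1550 in pLN and 20 and 44 in PP, detected on 1 of 2 arrays. Both cell types were lower in PP than in pLN. TFR cells were 2.14-fold higher in pLN and 17.6-fold higher in PP (3.04 ± 0.47, adjusted p = 0.00388). The PP fold rests on a TFH group near the floor of 20.

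Entpd1, the ATP-degrading ectoenzyme CD39, had a difference of -1.93 ± 0.46 (adjusted p = 0.0358). No TFH sample detected it, so that TFR cells were at least 7.39-fold higher in pLN and at least 2.35-fold higher in PP. Gpr83, a G-protein-coupled receptor of Treg cells, had -1.67 ± 0.43 (adjusted p = 0.0474), and no pLN TFH sample detected it. With the bound it came to -0.29, and TFR cells were at least 3.02-fold higher in pLN. Lrrc32, the Treg surface protein that binds latent TGF-beta, was 180-fold higher in TFR in pLN and 74.7-fold higher in PP (-1.27 ± 0.40, adjusted p = 0.0978). None of the 26 genes was called with either PP slide left out, and Nrp1 was the 1 called without pLN day 12 replicate 2.

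The vitamin A and D list had 4 of 17 tested members called (23.5%), 3 larger and 1 smaller in PP, with a median of -0.11. Vdr, the vitamin D receptor (chr15:97685136-97685195, mm9), had TFR intensities of 72, 115 and 175 in pLN and of 1653 and 1983 in PP. TFH intensities were 2790, 2612 and 2042 in pLN and 2121 and 2702 in PP. The TFH samples of both tissues overlapped, and the PP TFR samples lay just below them. TFR cells were 21.8-fold lower in pLN and 1.32-fold lower in PP (4.04 ± 0.45, adjusted p = 0.00067).

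Ccr9, a gut-homing chemokine receptor that retinoic acid induces in T cells, had TFR intensities of 149, 95 and 159 in pLN and of 2589 and 3483 in PP. TFH intensities were 168, 110 and 259 in pLN and 464 and 384 in PP. PP TFR cells were the highest of the 4 groups. Treg cells of each tissue lay above its TFR cells, at 22494 and 9905 in PP and 1444 to 1600 in pLN. TFR cells were 1.29-fold lower in pLN and 7.11-fold higher in PP (3.19 ± 0.40, adjusted p = 0.00116). Dhrs3, a retinaldehyde reductase that retinoic acid induces, had TFR intensities of 1263, 1503 and 1970 in pLN and of 10793 and 15052 in PP. It was 3.53-fold lower in TFR in pLN and 1.49-fold higher in PP (2.40 ± 0.35, adjusted p = 0.00319). Rara, the retinoic acid receptor alpha, was higher in TFR in both tissues, 4.19-fold in pLN and 2.09-fold in PP (-1.0 ± 0.22, adjusted p = 0.0239), with 1 of its 2 probes called. Vdr and Ccr9 were called with either PP slide left out, and Dhrs3 also without PP replicate 1.

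Receptors of positioning had the most members called, 6 of 22 tested (27.3%), with 5 larger in PP, among them Ccr9, and Cxcr3 smaller. The median of the 22 was 0.43. Cxcr5, the receptor of the follicular chemokine CXCL13, had TFR intensities of 12125, 13683 and 15655 in pLN and of 88179 and 72183 in PP. TFH intensities were 101941, 86197 and 122913 in pLN and 169614 and 158615 in PP. The highest values were those of PP TFH, and PP TFR overlapped with pLN TFH. TFR cells were 7.46-fold lower in pLN and 2.06-fold lower in PP (1.86 ± 0.37, adjusted p = 0.0157).

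S1pr2, the sphingosine-1-phosphate receptor that confines cells to germinal centres, was 6.31-fold lower in TFR in pLN and 1.35-fold lower in PP (2.22 ± 0.19, adjusted p = 0.000132). Its slide values were -2.90, -2.48 and -2.59 in pLN against -0.49 and -0.39 in PP. Germinal centre B cells also express it, and the part of the B-cell markers in its values was not tested. Rgs16, a regulator of chemokine receptor signalling, differed by 2.06 (adjusted p = 0.044). Ccr8, a receptor of tissue Treg cells, was 8.62-fold higher in TFR in pLN and 21.6-fold higher in PP (1.32 ± 0.21, adjusted p = 0.00525). For Ccr8 1 of 2 probes was called, and against GL7- TFH cells in PP the difference was 0.84. With either PP slide left out, Ccr9 and S1pr2 were called and Cxcr5 was not (1.76, adjusted p = 0.178, and 1.96, adjusted p = 0.136), and Cxcr5 was also lost without the day 25 slide. Of 19 selectin ligand and integrin genes 1 (5.26%) was called, near the 3.71% of all genes. It was Selplg, which encodes the selectin ligand PSGL-1 (-1.08 ± 0.19, adjusted p = 0.00865), and it was lost with either PP slide left out.

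Of 17 inhibitory and costimulatory receptors 3 (17.6%) were called. Pdcd1, which encodes PD-1, a marker of the sort gate in both cell types, had TFR intensities of 27456, 38287 and 51386 in pLN and of 166512 and 155321 in PP. TFH intensities were 127880, 90409 and 147254 in pLN and 174442 and 138438 in PP. The pLN TFR samples were low, and the other 3 groups lay close together. TFR cells were 3.16-fold lower in pLN and 1.03-fold higher in PP (1.71 ± 0.30, adjusted p = 0.00782). Btla, another inhibitory receptor, differed by 1.24 ± 0.18 (adjusted p = 0.00308) and Cd96 by -1.18 ± 0.27 (adjusted p = 0.0281). Without PP replicate 1 none of the 17 was called, and without PP replicate 2 Havcr2 was the 1 called.

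Sh2d1a, which encodes the SLAM adaptor SAP that sustains contacts with B cells, was called (1.00 ± 0.23, adjusted p = 0.027). It was the 1 of 8 SLAM family genes called (12.5%, against 3.71% of all genes). Il1r1, the IL-1 receptor of follicular T cells, was the 1 of 13 cytokine sensing genes called (7.69%, against 3.71% of all genes). Its TFR intensities were 323, 146 and 79 in pLN and 2168 and 1519 in PP, against TFH intensities of 2691 to 5720 on all 5 arrays. TFR cells were 23.8-fold lower in pLN and 2.63-fold lower in PP (3.18 ± 0.63, adjusted p = 0.0148). Neither gene was called when either PP slide was left out, and Il1r1 was also lost without the day 25 slide.

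Of the 5 defining markers of follicular T cells, 4 were called larger in PP, against 2.37% of all genes, and all 4 (Cxcr5, Pdcd1, Bcl6 and Sh2d1a) are counted in the lists above. With either PP slide left out, 0 of the 5 were called. The 5 had slide medians of -2.22, -1.24 and -1.52 in pLN and of -0.14 and -0.04 in PP. The part of the B-cell markers, at 2.11 and -1.18 on the PP slides, in these values was not tested. In bulk samples, fewer cells of a type and less RNA per cell cannot be told apart. This holds for every value given here.

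**Figure D5:**
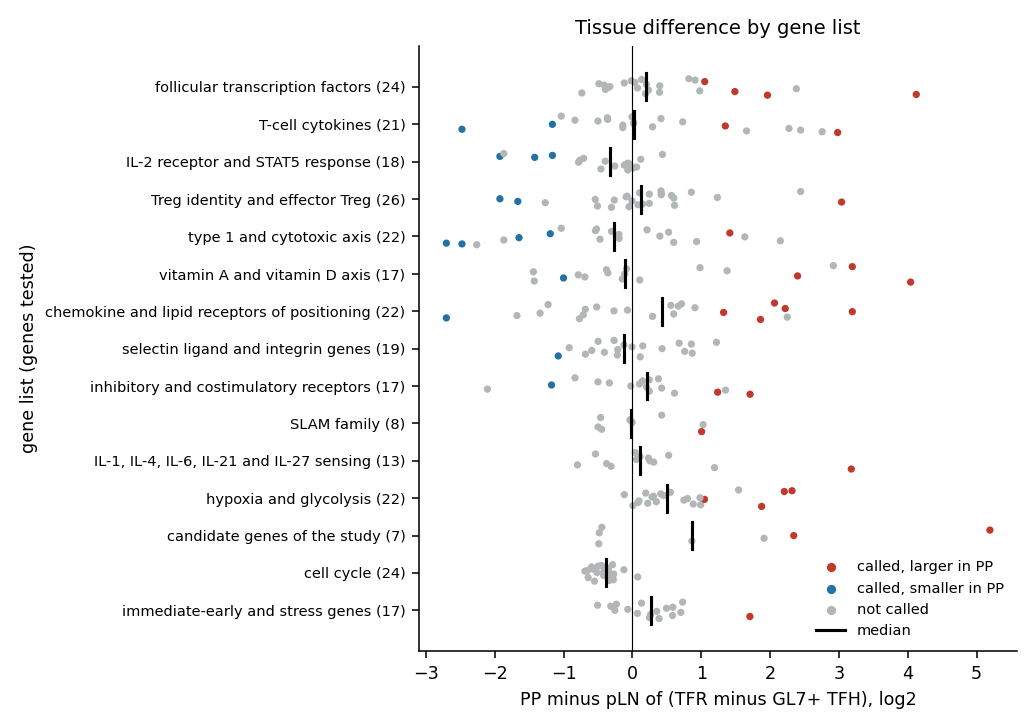
Difference between tissues in TFR minus GL7+ TFH (PP minus pLN, log2, horizontal axis) for the tested members of each gene list (rows), 1 point per gene, with called genes in red (larger in PP) or blue (smaller) and the list median as a bar. The hypoxia and glycolysis list has a median of 0.50 and the cell cycle list one of -0.38, beside -0.06 for all genes.

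Genes of the oxygen response and glycolysis were called for 4 of 22 tested (18.2%), all larger in PP. The median was 0.50, and 21 of the 22 were positive, against 5984 of 14265 genes overall. The list was chosen with earlier results of these data known and includes Hif1a, which the study reported from these samples. Its share is therefore no independent evidence. Hif1a, the oxygen-sensitive transcription factor subunit, had TFR intensities of 6044, 7764 and 10651 in pLN and of 35303 and 35903 in PP. TFH intensities were 29827, 19955 and 24970 in pLN and 30419 and 29650 in PP. Only the pLN TFR samples were low. TFR cells were 3.1-fold lower in pLN and 1.19-fold higher in PP (1.88 ± 0.33, adjusted p = 0.0086).

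Egln3, the prolyl hydroxylase that marks HIF-1 alpha for degradation and is itself a HIF target, had TFR intensities of 730, 746 and 885 in pLN and of 3309 and 3689 in PP, and TFH intensities of 6380 to 8247. The gap was 9.48-fold in pLN and 2.05-fold in PP (2.21 ± 0.42, adjusted p = 0.0119). Vegfa, a secreted growth factor and HIF target, was detected in PP TFR alone, at 98 and 82, and was at least 3.1-fold higher there than in PP TFH. The other 3 groups were not detected and lay mostly at the floor of 20, so the tissue difference of Vegfa rests on floored values and its p is not given. Pfkp, a phosphofructokinase, differed by 1.05 ± 0.19 (adjusted p = 0.00863), with 1 of its 2 probes called. Tpi1 (0.98, adjusted p = 0.00568) and Aldoa (0.80, adjusted p = 0.0117), both glycolytic enzymes, passed the adjusted p but stayed below 1 log2 unit. With either PP slide left out Vegfa was the 1 member called, and it fell below 1 log2 unit with a floor of 50 (0.84) or normexp background correction (0.96).

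To show the regulatory sequence of such genes, the 250 bases upstream of the transcription start are given for Hif1a and Egln3. These are the called members of the list that hold the core ACGTG of the hypoxia response element. Ascl2 and Il21 are added as examples from outside the list, picked because they hold it. Acod1, Bcl6, Btla and Il1r1 were also called larger in PP and held it, while Vdr and the list members Vegfa and Pfkp did not. The motif was also absent from the windows of C3, Grtp1, Cbfa2t3, Tox2, Nfia, Csf1, Nrp1, Stat4, Ccr9, Dhrs3, S1pr2, Ccr8, Pdcd1 and Fosl2, all called larger in PP. The sequences are from RefSeq (GRCm38.p6), written 5′ to 3′ on the strand of the gene, with ACGTG or its reverse complement CACGT in capitals. In Hif1a a match on each strand overlaps in CACGTG.
Hif1a, chr12:73907617-73907866, plus strand: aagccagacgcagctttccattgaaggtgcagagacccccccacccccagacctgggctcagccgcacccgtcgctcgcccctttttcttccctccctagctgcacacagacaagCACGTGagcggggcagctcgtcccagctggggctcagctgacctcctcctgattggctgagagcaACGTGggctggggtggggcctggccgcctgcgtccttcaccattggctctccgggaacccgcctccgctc
Egln3, chr12:54203875-54204124, minus strand: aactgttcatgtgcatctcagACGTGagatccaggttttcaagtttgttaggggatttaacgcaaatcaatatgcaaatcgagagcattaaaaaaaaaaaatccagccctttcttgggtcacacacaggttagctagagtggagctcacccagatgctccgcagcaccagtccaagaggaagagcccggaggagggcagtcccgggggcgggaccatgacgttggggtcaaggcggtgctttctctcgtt
Ascl2, chr7:142969265-142969514, minus strand: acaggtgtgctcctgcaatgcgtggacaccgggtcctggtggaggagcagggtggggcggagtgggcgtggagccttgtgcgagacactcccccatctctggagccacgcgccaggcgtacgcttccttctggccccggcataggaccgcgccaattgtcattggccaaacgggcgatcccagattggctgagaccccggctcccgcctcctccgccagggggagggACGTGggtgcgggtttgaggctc
Il21, chr3:37232637-37232886, minus strand: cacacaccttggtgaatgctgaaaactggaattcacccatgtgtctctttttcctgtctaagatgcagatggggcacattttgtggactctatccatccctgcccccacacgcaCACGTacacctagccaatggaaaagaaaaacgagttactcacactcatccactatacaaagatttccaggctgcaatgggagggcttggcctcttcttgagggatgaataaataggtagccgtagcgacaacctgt
The motif was present in 16.6% of the 27025 genes with a window, 21.1% of the 10748 tested ones, 23.1% of the 251 called larger in PP and 12.8% of the 133 called smaller. In the oxygen response and glycolysis list 9 of 20 genes with a window held it. The E-box CAGCTG was found in 11.6% of tested genes, 13.9% of those larger in PP and 18.0% of those smaller. These are counts of letters in a window and not of bound sites.

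The study had singled out 7 candidate genes from these samples, so their counts are no independent evidence. Of them 2 were called (28.6%), Sostdc1 and Nrn1. Nrn1, which encodes neuritin, was higher in TFR in both tissues. Its TFR intensities were 30367, 30340 and 41178 in pLN and 5690 and 7500 in PP, and its TFH intensities were 5690, 9574 and 10019 in pLN and 270 and 363 in PP. Both cell types were lower in PP, and TFH cells more so. The excess in TFR was 4.11-fold in pLN and 20.9-fold in PP (2.34 ± 0.36, adjusted p = 0.00372), and with either PP slide left out Nrn1 was not called.

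No cell cycle gene of 24 tested was called. Of these 24, 1 had a positive difference, and the median was -0.38. Mcm4, a subunit of the replicative helicase, passed the adjusted p with -0.69 (0.0201), below 1 log2 unit, and Mcm7 did not (-0.57, adjusted p = 0.111). The median of the list was -0.92 without PP replicate 1 and 0.08 without PP replicate 2, so its direction rested on the slide of PP replicate 2. Among 17 immediate-early and stress genes, 1 (5.88%) was called, near the 3.71% of all genes. It was Fosl2, an AP-1 subunit (1.71 ± 0.39, adjusted p = 0.0282), which was lost with either PP slide left out.

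The genes with the most negative differences were also of mixed function. Kcnj15, an inwardly rectifying potassium channel, had TFR intensities of 468, 346 and 562 in pLN and of 64 and 62 in PP, and was not detected in pLN TFH. TFR cells were at least 7.64-fold higher in pLN and 1.46-fold higher in PP. The limma estimate of the difference between tissues, from floored values, was -3.63 ± 0.31 (adjusted p = 0.000119). With the bound, which was not tested, it was -2.38 log2 or further from 0. It was called without any 1 slide. Wnt10a, a Wnt ligand, had TFH intensities of 1660, 3874 and 7792 in pLN and of 480 and 471 in PP, and was not detected in PP TFR. TFR cells were at least 16.9-fold lower in PP and 1.81-fold lower in pLN (adjusted p = 0.0473 between tissues). Wnt10a lost its call without PP replicate 1 (adjusted p = 0.227), PP replicate 2 (0.339), pLN day 12 replicate 2 (0.0866) or day 25 (0.0915).

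Enpp2, which encodes the lipid-producing enzyme autotaxin, was 1.5-fold higher in TFR in pLN and 4.18-fold lower in PP (-2.65 ± 0.52, adjusted p = 0.014). Bace2, an aspartic protease, was 3.05-fold higher in pLN and 2.72-fold lower in PP (-3.05 ± 0.63, adjusted p = 0.0187). The kallikreins Klk1b27 (-2.99, adjusted p = 0.0136) and Klk1b24 (-2.73, adjusted p = 0.0176) moved together through TFH cells, with Klk1b27 at 3491 and 3864 in PP TFH and 216 to 1060 in pLN TFH. Their sequences are near-identical, so both probes may report shared transcripts. Without PP replicate 1 the adjusted p of these 4 genes was 0.194 to 0.221, and without PP replicate 2 it was 0.0798 to 0.18.

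The probe for 28S ribosomal RNA, Rn28s1, gave 45885, 34702 and 26318 in pLN TFR, 17472 and 7435 in PP TFR, 18977 to 21186 in pLN TFH, and 68563 and 27064 in PP TFH. Its difference was -2.69 ± 0.36 (adjusted p = 0.00174) and lost its call against GL7- TFH cells in PP (-0.73, adjusted p = 0.248). The method amplifies polyadenylated RNA, and the part of this signal in the other results was not tested. Cobl, an actin nucleator, and Cdh13, an atypical cadherin, differed by -2.70 ± 0.51 (adjusted p = 0.0115) and -2.59 ± 0.64 (adjusted p = 0.0398). Both also lost their call against GL7- TFH cells in PP, with GL7+ TFH cells kept in pLN (-1.63 and -2.13).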

How the data were processed

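RNA of sorted cells (40 or 50 ng of total RNA) was amplified in 1 round, labelled with Alexa Fluor 555 and hybridised to 1-colour Agilent arrays with 39429 probes of 4 features each. The deposited intensity values are background-corrected signals of Agilent Feature Extraction 10.7.3.1, per the file headers, and the authors' gene positions refer to mm9. Following the authors' methods, features with flags, beyond 1.42 interquartile ranges or with a pixel variation above 0.5 were left out, the geometric mean of the remaining features was taken, and the arrays were then brought to 1 distribution by quantiles, with its 75th percentile set at 1500 and values under 20 raised to 20. The rebuilt values differed from the authors' deposited log2 table by a median of 0.0347 to 0.0362 log2 per array. The authors' detection marks were used as deposited, and a probe was detected where at least 3 features were well above background. Arrays give no counts, so their number limits the precision.

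limma 3.58.1 (R 4.3.3) was fitted to all 20 arrays with the slide as a block and a cell effect within each tissue. The contrast was the mean PP minus the mean pLN TFR minus TFH difference. The slide pairs the samples by the scanner headers, and the correlation between arrays of a slide was 0.687. The 21798 probes detected on every array of at least 1 of the 4 groups were tested, and a call needed an adjusted p (Benjamini-Hochberg) under 0.05 and a log2 difference of at least 1. A gene was represented by its probe of highest mean intensity. Symbols came from RefSeq for 27597 probes and otherwise from the files.

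The comparison and the gene lists were chosen with earlier results of these data known. Named were the 10 largest and 10 smallest called differences among genes detected in at least 3 of the 4 groups with tissues that did not overlap, up to 4 called members of each list by p, or 2 where none was called, and 13 fixed genes. In data simulated for this contrast on 21798 probes, true changes of 1, 1.5, 2 and 3 log2 units were called in 26%, 86%, 84% and 94% of cases, with 9 false calls. Alternatives were the groups compared alone, no block, a random block, leaving out each slide, other scalings, backgrounds, filters and floors, GL7- TFH in PP, and an ordinary t-test. That t-test took the within-slide differences. The study's methods name no test of this contrast.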

Additional observations from a re-analysis of the deposited data

Results flagged for a closer look

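The TFR minus GL7+ TFH difference of 52 named genes differed between PP and pLN by the limma test of the difference itself, and this is what brought them here. Differences are PP minus pLN in log2 units.

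The larger ones in PP were Art2a (6.37), Sostdc1 (5.19), Acod1 (5.02), Dnase1l3 (5.0), C3 (4.96), Trf (4.29), Grtp1 (4.28), Cbfa2t3 (4.14), Ascl2 (4.12) and Vdr (4.04). They were followed by Ccr9 (3.19), Il1r1 (3.18), Nrp1 (3.04), Il21 (2.98), Dhrs3 (2.40), Nrn1 (2.34), Vegfa (2.32), S1pr2 (2.22) and Egln3 (2.21). The remaining larger ones were Bcl6 (1.96), Hif1a (1.88), Cxcr5 (1.86), Pdcd1 (1.71), Fosl2 (1.71), Tox2 (1.49), Stat4 (1.4), Csf1 (1.35), Ccr8 (1.32), Btla (1.24), Nfia (1.05), Pfkp (1.05) and Sh2d1a (1.00). Grtp1, Nfia and Vegfa had at least 1 group below background on every array, so that their values depend on the floor, and Cbfa2t3 was detected in 1 of 3 pLN TFR samples. Art2a, Acod1, Il1r1 and Ccr9 were detected in 2 of 3 pLN TFR samples, and Nrp1 in 1 of 2 PP TFH samples.

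The smaller ones in PP were Kcnj15 (-3.63), Wnt10a (-3.23), Bace2 (-3.05), Klk1b27 (-2.99), Klk1b24 (-2.73), Cxcr3 (-2.71), Cobl (-2.70), Rn28s1 (-2.69), Enpp2 (-2.65), Cdh13 (-2.59) and Ifng (-2.48). Differences closer to 0 were those of Il7r (-1.93), Entpd1 (-1.93), Gpr83 (-1.67), Nkg7 (-1.65), Osm (-1.42), Cd96 (-1.18), Lta (-1.16), Selplg (-1.08) and Rara (-1.0). Kcnj15, Wnt10a, Entpd1 and Gpr83 also had a group below background on every array, and Cobl was detected in 1 of 3 pLN TFH samples.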

How the results depend on the processing

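Of 60 named genes 56 kept their direction under every alternative in which they were tested, which was 17, or 16 for genes outside the filter on all 10 arrays. For the called named genes the PP slides lay outside the pLN range. Leaving out a slide could therefore not turn their direction, and those fits are no support for it. Of the named genes, 8 (Art2a, Sostdc1, Dnase1l3, Grtp1, Ascl2, Vdr, Kcnj15 and Ccr9) stayed called under every alternative in which they were tested but the ordinary t-test. Among all 529 called genes, 51 did so. Against 720 probes called between the tissues, 1378 within PP and 1867 within pLN, the count between tissues was 406 with the compared groups only, 465 with no filter on dim probes, and 417 with probes detected on all 10 arrays, where PP gave 744 and pLN 1088. Of the 406 probes, 336 were among the 720. Without the replicate block, that is without the slide pairing, 239 probes were called between tissues and 899 in PP, and with the slide as a random replicate block 827. Normexp background gave 849 in PP and 1225 in pLN. The ordinary t-test of within-slide differences, with adjustment, called 1 between tissues, 0 in PP and 2 in pLN, with 3131 between tissues at an unadjusted p under 0.05. Leaving out 1 slide gave 244 to 613 between tissues, 776 to 1412 in PP and 1722 to 1844 in pLN.

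The differences that changed sign belonged to 4 genes not called between the tissues. Leaving out 1 slide, Il2ra ranged from -0.38 to 0.24 (above 0 without PP replicate 1 and, at 0.16, without pLN day 25), Klf2 from -1.09 to 0.27 (above 0 without PP replicate 2 and, at 0.13, without pLN day 12 replicate 1) and Foxp3 from -0.64 to 0.21 (above 0 without pLN day 25). Prdm1 came to -0.024 with normexp. Without pLN day 12 replicate 2, 18 named genes lost their call. These were C3, Wnt10a, Bace2, Klk1b24, Cxcr3, Cobl, Cdh13, Tox2, Nfia, Csf1, Il7r, Entpd1, Gpr83, Nkg7, Rara, Cd96, Sh2d1a and Fosl2. The 13 lost without pLN day 25 were Cbfa2t3, Wnt10a, Cxcr3, Cobl, Cdh13, Nfia, Ifng, Csf1, Il7r, Entpd1, Gpr83, Cxcr5 and Il1r1, and the 10 lost without pLN day 12 replicate 1 were C3, Cbfa2t3, Il7r, Entpd1, Rara, Selplg, Cd96, Sh2d1a, Pfkp and Fosl2. Il4 became called with the compared groups only, the random block, normexp and without pLN day 12 replicate 1 (adjusted p = 0.0165), Lrrc32 without pLN day 12 replicate 1 (adjusted p = 0.0259) and with 75th percentile scaling, and Il2ra against GL7- TFH in PP (-1.59, adjusted p = 0.0353). The share of calls that were larger in PP was 64.0%, and 74.1% with the compared groups only or without the block. The causes were not tested. Dim groups limit Nfia, Vegfa, Gpr83 and Entpd1, and changes near 1 log2 unit were often missed in simulated data.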

Other observations

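The genes below are single called genes outside the lists. They were chosen after their values were seen, stand for no group, and were not recomputed with slides left out. Larger in PP were the TFR minus TFH differences of Calca, which encodes the calcitonin gene-related peptide (4.36 log2), Gfra4 (3.80) and Gfra1 (2.05), co-receptors of the GDNF family, the adrenergic receptor Adra2a (3.63), the VIP receptor Vipr2 (2.79), the neurotrophin receptor Ntrk3 (2.68), the neuropeptide gene Gal (2.31), the serotonin receptor Htr7 (2.29) and the histamine receptor Hrh3 (1.91).

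Other single genes called larger in PP were Ak4 (3.19), an adenylate kinase, Stc2 (3.23), a secreted glycoprotein, the glycolytic aldolase Aldoc (1.86), the lactate transporter Slc16a3 (1.81), Pfkfb4 (1.53) and Bnip3 (1.05). Il1rn, the IL-1 receptor antagonist, differed by 3.71, Il13ra1 by 3.67 and Ltbr by 3.38. Myb, a transcription factor of progenitor cells, was smaller in PP, with TFR minus TFH values of 0.50, -0.07 and 0.17 on the pLN slides and of -2.36 and -2.41 on the PP slides (-2.58, adjusted p = 0.000406). Sox4 (-1.76) and Klf12 (-1.84) were smaller too. Probes of the near-identical H2al histone genes (H2al1a 3.36, H2al1e 2.89) count as 1 signal.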
